A study of Mus musculus with 18 samples.

Results

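In this RNA-seq series of mouse embryonic fibroblasts, a pair of groups stood out by high levels of the chemokine gene Ccl5, the growth factor gene Ereg and the RNA sensor gene Ifih1, and the report describes the genes that set that pair apart from the other 4 groups. The pair comprised the group labelled Ago2+/+ DMSO and the group labelled Ago2-/- thapsigargin. It was chosen on the measured values of these genes, so the levels given below are a description and no test was made. A gene was called higher in the pair when the lower of its 2 values in the pair exceeded the highest of the other 4 values by at least 1 on the log2(FPKM + 1) scale, and lower in the reverse case. FPKM counts sequenced fragments, scaled for the length of the transcript and for the mapped fragments of the library, and the difference above is called the gap. Of 11821 autosomal genes compared, 173 (1.46%) were higher in the pair and 225 (1.90%) were lower, giving 398 members.

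The series holds 18 libraries of RNA from embryonic fibroblasts, 3 in each of 6 groups. The cells were labelled Ago2+/+ or Ago2-/-, where Ago2 encodes the Argonaute protein that cleaves RNA in RNA interference. They received the solvent DMSO, the glycosylation inhibitor tunicamycin or 500 nM thapsigargin, an inhibitor of the calcium pump of the endoplasmic reticulum. Library titles use the name DCR1 for the groups labelled Ago2+/+. The other 4 groups were those labelled Ago2+/+ thapsigargin, Ago2-/- tunicamycin, Ago2+/+ tunicamycin and Ago2-/- DMSO. The pair therefore joins 1 group of each genotype label, 1 under solvent and 1 under thapsigargin, and differences within it cannot be assigned to genotype or to treatment. The cells were received as lines from another laboratory, and the sources used here do not state the number of lines or clones. For 4 libraries the genotype labels conflict. The deposited table gives 1 pooled FPKM value per group without the values of single libraries, so no library could be left out, no spread between replicates can be given and the depth of the libraries is unknown. Because the RNA comes from bulk cultures, a smaller share of cells with a transcript and less of it per cell cannot be told apart.

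Type I interferons signal through the JAK-STAT pathway to a transcription factor complex that binds interferon-stimulated response elements, and in fibroblasts this raises genes whose products restrict viral RNA and proteins. Hox genes lie in 4 clusters, named a to d, and their expression in cultured fibroblasts keeps a record of the position along the body or limb from which the cells were taken. Both families supplied members of the pair.

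Below, the values of the pair are given in the order Ago2+/+ DMSO and Ago2-/- thapsigargin. Those of the other groups follow in the order Ago2+/+ thapsigargin, Ago2-/- tunicamycin, Ago2+/+ tunicamycin and Ago2-/- DMSO. In the pair Ago2 itself (chromosome 15, 73090392 to 73184840, GRCm38) stood at 22.1 and 20.7 FPKM, and it was at 17.0, 15.5, 5.75 and 5.61 FPKM in the others, so its level did not follow the genotype labels. The locus that holds Xist, the RNA that silences an X chromosome in female cells, was at 46.6 and 33.5 FPKM in the pair and at no more than 0.0574 FPKM elsewhere. The other 4 sex-linked genes listed summed to 69.4 FPKM in Ago2+/+ thapsigargin and 69.6 FPKM in Ago2-/- tunicamycin. In the pair, in Ago2+/+ tunicamycin and in Ago2-/- DMSO they summed to 0, so the groups outside the pair were not alike. Across the 11821 genes, the rank correlation (Spearman) of both groups of the pair was 0.978, and each correlated with the other 4 groups at 0.902 to 0.911. These correlations are over genes, which are not replicates.

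The markers proposed for the pair separated it in part, but Ccl5, Ereg and Ifih1 are the genes on which it was chosen. Their high levels in the pair follow from that choice and are no support for it. Ccl5 (chromosome 11, 83525778 to 83530518), which attracts T cells and monocytes, was at 41.3 and 27.3 FPKM in the pair and at 2.30, 4.61, 0.302 and 0.712 FPKM in the others, a gap of 2.33. Ereg (chromosome 5, 91051871 to 91093646), a ligand of the EGF receptor, was at 20.2 and 22.4 FPKM against 3.89, 3.07, 0.0409 and 0.127 FPKM, a gap of 2.12. For both genes each value of the pair was above every other value. Ifih1 (chromosome 2, 62595798 to 62646255), the sensor of long double-stranded RNA also known as MDA5, was at 6.81 and 4.29 FPKM against 1.37, 2.06, 0.0748 and 0.0586 FPKM, and its gap of 0.79 missed the threshold. Cavin2, a coat protein of caveolae, did not separate the pair: its 103 and 85.8 FPKM lay beside 104 and 78.9 FPKM in Ago2+/+ thapsigargin and Ago2-/- tunicamycin, and only Ago2+/+ tunicamycin and Ago2-/- DMSO were low, at 1.63 and 1.03 FPKM.

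The genes with the largest gaps were mostly not interferon genes, as the plots of the pair against the other groups and of the named genes show. Among named genes the higher side was led by the retinoic acid carrier Crabp2 and the limb Hox genes Hoxa11 and Hoxd13, and the lower side by the chemokine Cxcl12. The cells of the pair are therefore called by the rule that chose them and not by the name of an interferon-active cell type.

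**Figure D1:**
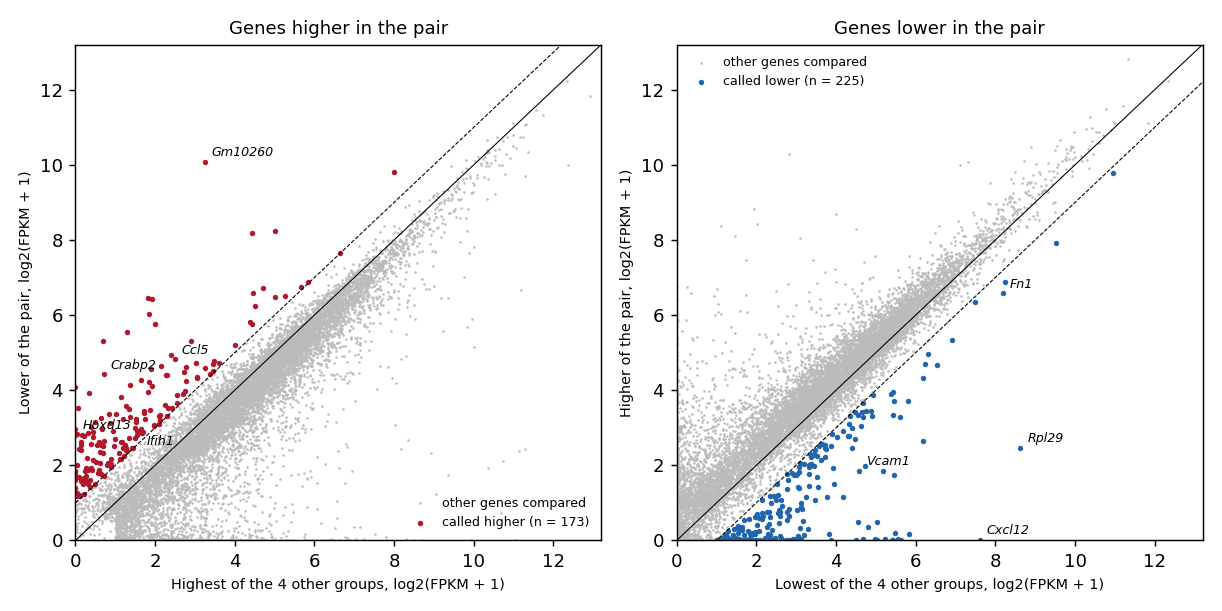
The 11821 genes compared, with the limiting value of the pair on the vertical axis and the limiting value of the other 4 groups on the horizontal axis, both as log2(FPKM + 1). The solid line marks equal values and the dashed line a gap of 1; the 173 genes called higher (red) and 225 called lower (blue) lie beyond it, with Gm10260 at the top left and Cxcl12 at the bottom right.

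**Figure D2:**
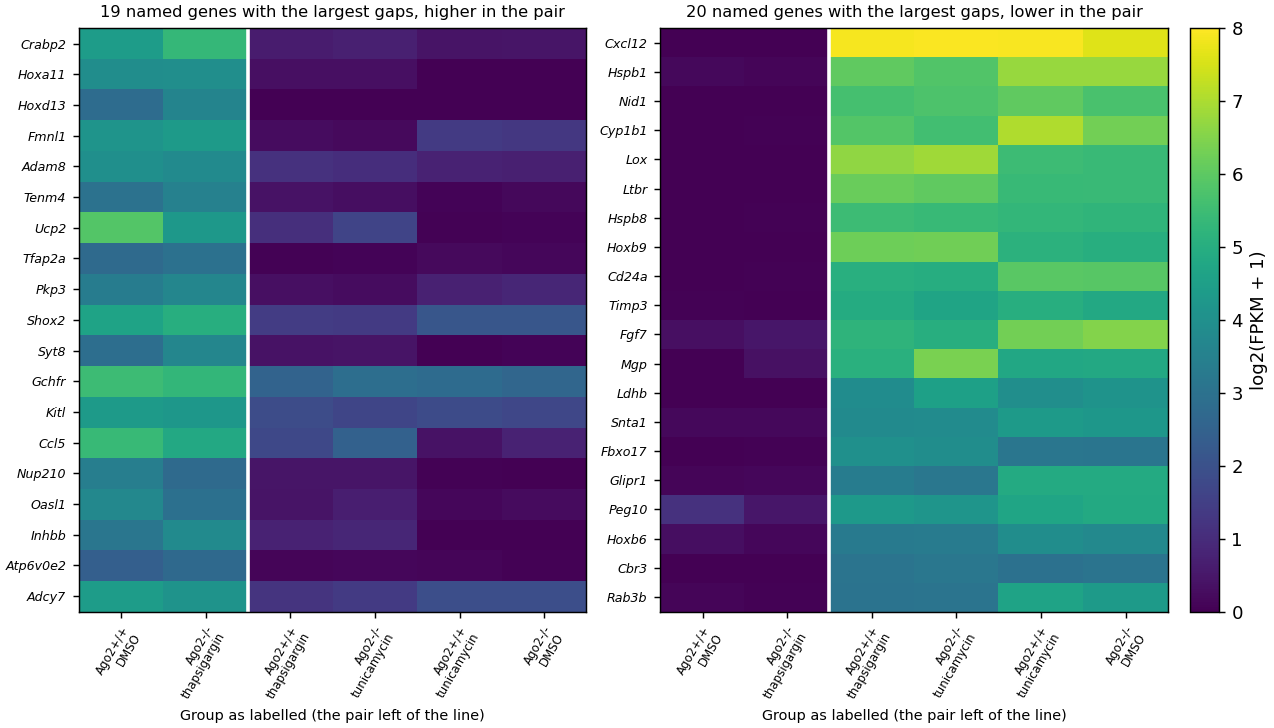
Levels, as log2(FPKM + 1), of the named genes with the largest gaps, 19 higher and 20 lower (rows, ordered by gap), in the 6 groups (columns). The pair, left of the white line, is bright in the left panel and close to 0 in the right panel, where Cxcl12 is at 194 to 245 FPKM in the other 4 groups.

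Few of the interferon-stimulated genes passed the threshold, although most were above the other groups in both groups of the pair. Of 71 such effector genes listed, 43 had a locus of their own and reached 1 FPKM in a group. Of these 43, 6 (14.0%) were called higher and 0 lower, where 1.46% of all genes were higher. A gap above 0, meaning no overlap between the pair and the others, was seen for 26 of the 43 (60.5%) in the higher direction and for 2 in the lower, where 18.0% and 19.3% of all genes had one. The median difference between the mean of the pair and that of the others was 0.83 on the log2 scale, against -0.019 over all genes. Some of the 43, such as Oasl1 and Oasl2, reached 1 FPKM only in the pair. The pair was also chosen for high Ccl5, Ereg and Ifih1, so these shares are a description and no support for an interferon-active state.

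The 6 called genes were Oasl1, Apol9a, Oasl2, Isg15, Apol9b and Ifit1. Isg15 (chromosome 4, 156199424 to 156200818), a ubiquitin-like protein that is joined to other proteins during an antiviral response, was at 39.2 and 21.4 FPKM in the pair and at 2.34, 5.56, 0.881 and 1.43 FPKM in the others (gap 1.78). Oasl1, which limits the translation of the interferon regulator Irf7, was at 12.2 and 6.81 FPKM against 0.350, 0.597, 0.103 and 0.177 FPKM (gap 2.29). Its neighbour on chromosome 5, the related Oasl2, was at 8.53 and 4.68 FPKM against 0.0778 to 0.603 FPKM (gap 1.82). In each of these the lowest value of the pair was several times the highest of the others. Ifit1 (chromosome 19, 34640871 to 34650009), which binds foreign RNA at its 5′ end, was at 7.12 and 4.51 FPKM against 0.448, 1.41, 0.0767 and 0.148 FPKM (gap 1.20). The apolipoprotein L genes Apol9a and Apol9b were at 17.5 and 10.3 FPKM and at 8.88 and 5.19 FPKM in the pair, with at most 1.53 and 1.24 FPKM in the others. Apol9a and Apol9b are close paralogs, so the division of fragments between them is uncertain.

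The upstream sequences of 3 of these genes are shown because they carry the response element by which interferon-stimulated genes are recognised. The sequences are the 250 bases before the start of transcription in RefSeq (GRCm38.p6), 5′ to 3′ on the strand of the gene: Isg15 chr4:156200819-156201068 (minus strand), Ifit1 chr19:34640639-34640888 (plus strand) and Apol9a chr15:77411081-77411330 (minus strand). Capitals mark matches to GAAANNGAA, the core of the element, on either strand, and overlapping matches are joined.
Isg15: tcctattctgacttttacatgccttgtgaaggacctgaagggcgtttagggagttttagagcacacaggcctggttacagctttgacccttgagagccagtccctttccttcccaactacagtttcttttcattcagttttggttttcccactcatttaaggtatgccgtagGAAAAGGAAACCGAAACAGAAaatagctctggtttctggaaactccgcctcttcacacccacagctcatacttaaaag
Ifit1: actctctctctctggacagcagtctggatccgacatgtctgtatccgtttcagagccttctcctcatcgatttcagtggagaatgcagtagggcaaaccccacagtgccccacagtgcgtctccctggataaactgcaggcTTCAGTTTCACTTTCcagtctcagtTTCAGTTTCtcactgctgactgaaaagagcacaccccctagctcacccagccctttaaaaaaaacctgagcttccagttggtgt
Apol9a: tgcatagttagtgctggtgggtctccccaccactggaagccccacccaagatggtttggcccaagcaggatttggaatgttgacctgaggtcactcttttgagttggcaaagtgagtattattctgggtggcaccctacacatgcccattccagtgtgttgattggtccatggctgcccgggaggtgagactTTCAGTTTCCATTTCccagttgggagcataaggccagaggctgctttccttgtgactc
In Isg15 and Ifit1 there were 3 matches each and in this Apol9a promoter 2. Those of Isg15 lie on the strand shown, and those of Ifit1 and Apol9a on the other strand, so that the core appears in its reverse complement.

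Promoters (these 250 bases and the next 50) were found for 86 of the 173 higher genes, and 17 of their 117 promoters (14.5%) held the core on either strand, with overlaps allowed. The share was 4.84% of the 186 promoters of the lower genes, 6.74% of the 10443 promoters of all genes compared and 8.56% of all 32851 promoters in the reference. Of the 6 called interferon-stimulated genes, 4 held it (Apol9a, Apol9b, Ifit1 and Isg15), as did 15 of the 27 uncalled ones with a promoter. The 6 called genes had 8 promoters, and 6 of these are among the 17 above, so they raise the share of the higher genes. Oasl1 and Oasl2 held no match. The 14 higher genes with a match also included genes outside that list, such as Hoxa9, Shox2, Tenm4 and Inhbb. The gamma-activated site TTCNNNGAA was found in 8.55% of the promoters of the higher genes, 8.06% of those of the lower genes and 6.80% of those of all genes compared, and in 0 of the 8 promoters of the called interferon-stimulated genes. The kappaB-like GGGNNTTTC was found in 5.13%, 2.15% and 4.01% of those promoters. These matches are descriptions of the letters and were not tested.

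Several uncalled interferon-stimulated genes came close to the threshold. Ifi27 was at 76.4 and 59.8 FPKM in the pair against 23.3, 34.4, 6.95 and 11.6 FPKM (gap 0.78). Ddx60 (gap 0.92) and Oas1a (gap 0.89) were below 1 FPKM in at least 1 group of the pair. Bst2, or tetherin, which holds budding virus at the cell surface, was at 63.5 and 47.6 FPKM against 11.3 to 31.6 FPKM (gap 0.57). Some members of the list went the other way. The antiviral ADP-ribosyltransferase Parp12 was at 1.84 and 1.13 FPKM in the pair and at 4.04 to 10.3 FPKM in the others. Ifitm1 was at 22.2 and 15.5 FPKM in Ago2+/+ tunicamycin and Ago2-/- DMSO and at no more than 0.225 FPKM in the 4 remaining groups, the pair included. Ifi204, a DNA-binding sensor, was also highest in those 2 groups, at 32.5 and 45.4 FPKM, with 18.9 and 16.4 FPKM in the pair.

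The levels were graded and not simply on or off. Between both groups of the pair, 37 of 43 interferon-stimulated genes (86.0%) were higher in Ago2+/+ DMSO than in Ago2-/- thapsigargin, with a median difference of 0.31 on the log2 scale, whereas this held for 52.8% of all genes. Outside the pair, 32 of 43 (74.4%) were higher on average in Ago2+/+ thapsigargin and Ago2-/- tunicamycin than in Ago2+/+ tunicamycin and Ago2-/- DMSO, and 41 of 43 (95.3%) were higher in Ago2-/- tunicamycin than in Ago2+/+ thapsigargin. The corresponding shares of all genes were 50.4% and 49.9%. The summed level of the list was 843 and 711 FPKM in the pair and 439, 518, 492 and 523 FPKM in the others, so outside the pair it did not follow the order of these gene counts. The heat map shows the levels gene by gene.

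**Figure D3:**
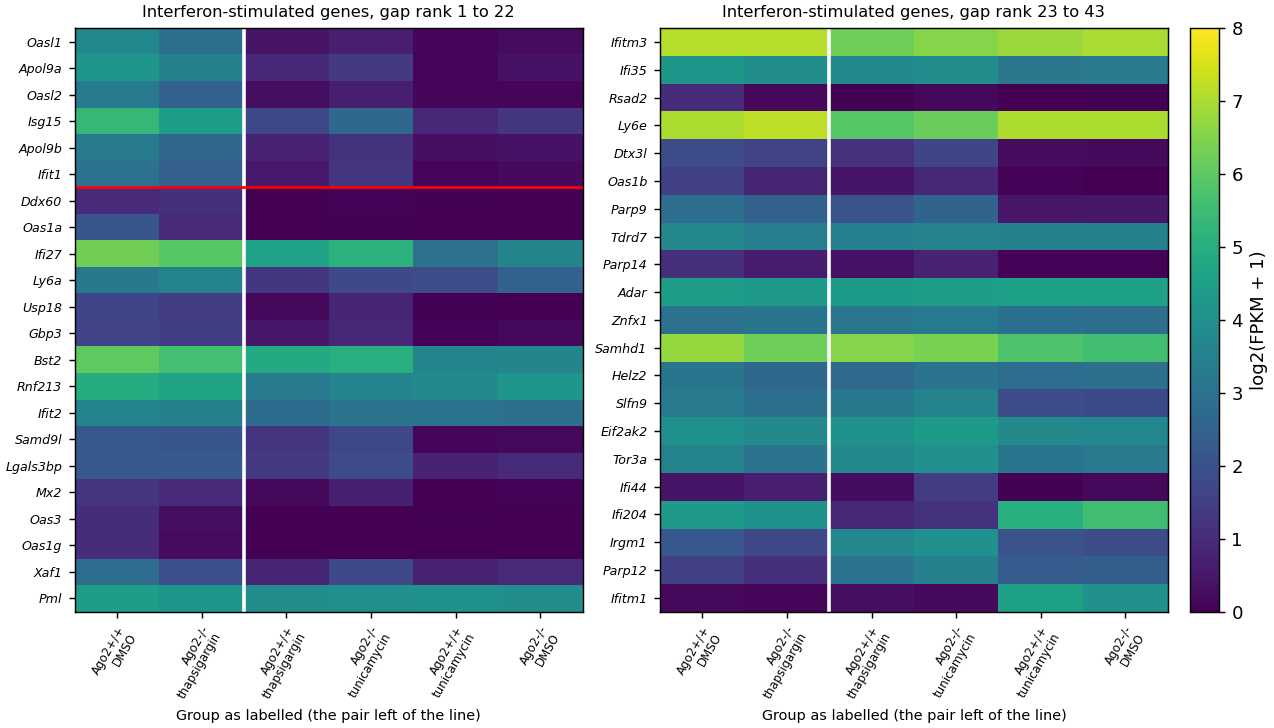
Levels, as log2(FPKM + 1), of the 43 interferon-stimulated effector genes (rows, ordered by their gap in the higher direction) in the 6 groups (columns), with the pair left of the white line. The 6 genes above the red line were called higher in the pair; the last rows, such as Ifitm1 and Parp12, are brighter outside the pair.

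Upstream of these effectors the differences were smaller. Of 17 nucleic acid sensors and adaptors that could be compared, 0 were called in either direction. Over all genes 1.46% were higher and 1.90% lower, so nothing is read from a count of 0 in so short a list. Their median difference between the pair and the others was 0.10 on the log2 scale, against 0.83 for the effectors. A gap above 0 was seen for 5 (29.4%, against 18.0% of all genes) in the higher direction and for 2 (11.8%, against 19.3%) in the lower. The RNA sensor gene Ifih1, with a gap of 0.79, is a gene on which the pair was chosen, so these values are no support for that choice. Tmem173, which encodes the adaptor STING, came nearest to the threshold at 26.6 and 18.5 FPKM against 6.92, 8.84, 0.686 and 0.543 FPKM (gap 0.99). Of 15 genes for interferon receptors, Janus kinases, STAT proteins and interferon regulatory factors, 0 were called. Their median difference was -0.20, with a gap above 0 for 2 (13.3%) in the higher direction and for 4 (26.7%) in the lower. Irf7, the factor that amplifies type I interferon production, was at 3.86 and 2.34 FPKM against 0.303, 1.10, 0.0575 and 0.0159 FPKM (gap 0.67). The receptor chain Ifnar1 was at 24.1 and 19.1 FPKM in the pair and at 22.1 to 35.0 FPKM in the others, so its levels overlapped.

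Of 17 listed genes of antigen presentation by MHC class I, 1 (5.88%, against 1.46% of all genes) was called higher. It was Nlrc5, the transactivator of that pathway, at 3.26 and 3.56 FPKM against 0.403, 0.439, 0.0104 and 0.105 FPKM (gap 1.57). The class I gene H2-Q2, which was not in that list, was also called higher (gap 1.66). Outside the pair H2-Q2 was at no more than 0.0163 FPKM. The class I gene H2-D1 was at 170 and 156 FPKM in the pair against 77.4, 88.9, 25.2 and 27.5 FPKM (gap 0.80). In the H2-T part of the MHC region, on chromosome 17 between 35994453 and 36194811, 5 neighbouring loci were called higher (A930015D03Rik, Gm11127, Gm8810, BC023719 and Gm4246). BC023719 was at 4.43 and 4.90 FPKM in the pair, at 0.0691 FPKM in Ago2-/- tunicamycin and listed at 0 in the other groups. H2-T22, in the same stretch, was in contrast at 8.06 and 6.39 FPKM in the pair and at 12.0 to 18.6 FPKM in the others. Class I genes are near-identical copies of each other and differ between mouse strains, so their values are uncertain.

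Chemokine and cytokine genes were not uniformly higher. Of 20 compared, Ccl5, on which the pair was chosen, was called higher (5%, against 1.46% of all genes) and Cxcl12 and Cx3cl1 lower (10%, against 1.90%). Cxcl10, an interferon-induced chemokine, was at 26.0 and 15.96 FPKM in the pair, but Ago2-/- tunicamycin reached 14.2 FPKM and the gap was 0.16. Cx3cl1, the membrane-bound chemokine fractalkine, was at 4.17 and 4.83 FPKM in the pair and at 12.2 to 17.7 FPKM in the others (gap 1.18). Among 17 genes of the NF-kappaB pathway, 0 were higher and Vcam1 and Birc3 were lower (11.8%, against 1.90% of all genes), and 8 (47.1%, against 19.3%) did not overlap in the lower direction. The adhesion molecule Vcam1 was at 2.61 and 2.21 FPKM in the pair and at 22.9, 26.8, 57.5 and 59.3 FPKM in the others (gap 2.73). Birc3, an inhibitor of apoptosis induced by NF-kappaB, was at 1.66 and 0.356 FPKM against 7.19 to 22.9 FPKM (gap 1.62). Of 12 EGF ligands and receptors, Ereg and the neuregulin gene Nrg2 (4.71 and 3.46 FPKM against 0.380 to 1.16 FPKM) were called higher, which is 16.7% against 1.46% of all genes, but Ereg is a gene on which the pair was chosen. The related ligand Areg did not separate, since it was at 34.8 and 65.8 FPKM in Ago2+/+ tunicamycin and Ago2-/- DMSO and at 3.71 and 7.05 FPKM in the pair. Egfr, the receptor that Ereg binds, was at 1.63 and 1.41 FPKM in the pair and at 3.73 to 15.5 FPKM in the others (gap 0.84 in the lower direction).

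The Hox genes divided by cluster. Of 23 that could be compared, 3 (13.0%) were higher in the pair and 9 (39.1%) lower, against 1.46% and 1.90% of all genes. All 9 compared genes of the Hoxb cluster (chromosome 11, 96194316 to 96354691) were lower. In the pair their values lay between 0 and 0.242 FPKM, and in the other 4 groups between 1.02 and 76.1 FPKM. Hoxb9 was the most abundant, at 74.3, 76.1, 34.0 and 31.6 FPKM outside the pair and at 0.00391 and 0.0161 FPKM within it (gap 5.004). Hoxb2, Hoxb7 and Hoxb13 were listed at 0 in both groups of the pair. Hoxb13 lies at the end of the cluster and its gap of 1.01 was the smallest, with 1.02 to 1.22 FPKM outside the pair.

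The higher Hox genes were from the 5′ parts of the Hoxa and Hoxd clusters, which are active in the limb and the genital region of the embryo. Hoxa11 (chromosome 6, 52242106 to 52249799) stood at 14.1 and 14.4 FPKM in the pair, at 0.259 and 0.253 FPKM in Ago2+/+ thapsigargin and Ago2-/- tunicamycin, and was listed at 0 in the other groups. Hoxd13 (chromosome 2, 74668310 to 74671599) stood at 6.03 and 11.3 FPKM in the pair and was listed at 0 in each of the other 4 groups. Hoxa9 was at 20.7 and 25.4 FPKM against 9.42, 9.16, 0.673 and 0.865 FPKM (gap 1.06), and Hoxa10, between both genes, missed the threshold with a gap of 0.93. Nearer the 3′ end of the cluster, Hoxa7 was at 7.66 and 8.48 FPKM in the pair and at 11.1 to 21.8 FPKM in the others. In the Hoxc cluster the 4 compared genes were at no more than 0.0731 FPKM in the pair and likewise low in Ago2+/+ thapsigargin and Ago2-/- tunicamycin, whereas Hoxc8 was at 25.1 and 25.6 FPKM in Ago2+/+ tunicamycin and Ago2-/- DMSO. The heat map of the Hox genes shows 3 patterns, each shared by a pair of groups.

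**Figure D4:**
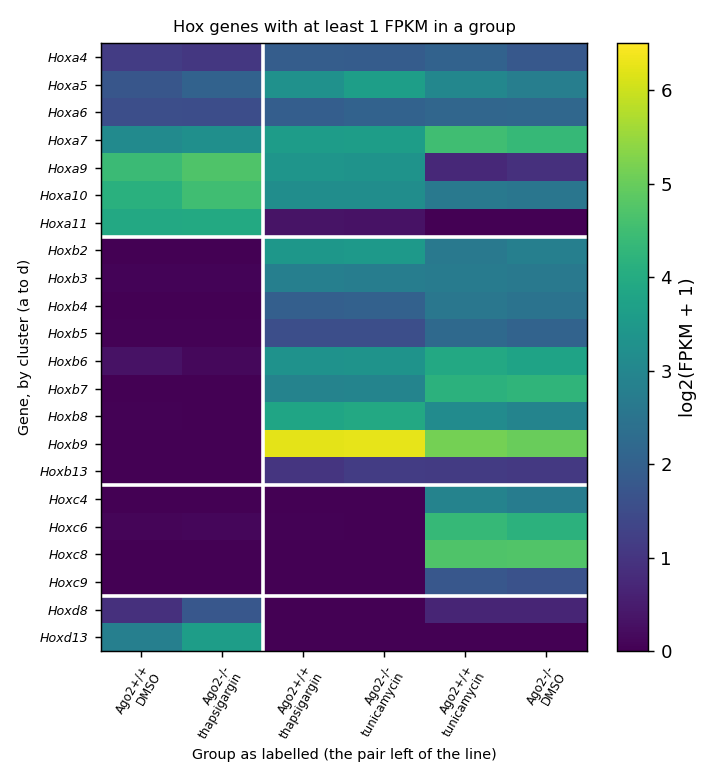
Levels, as log2(FPKM + 1), of 22 Hox genes that reached 1 FPKM in a group (rows, in cluster order, white horizontal lines between the clusters) in the 6 groups (columns), with the pair left of the vertical line. The pair is dark over the 9 Hoxb genes and bright at Hoxa9 to Hoxa11 and Hoxd13; the 4 Hoxc genes are bright only in Ago2+/+ tunicamycin and Ago2-/- DMSO.

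Other developmental transcription factors were among the called genes, in both directions. Shox2, which is needed for the proximal limb, was at 23.8 and 31.7 FPKM in the pair against 1.70, 1.59, 3.42 and 3.40 FPKM (gap 2.49). Tfap2a was at 5.87 and 6.97 FPKM against 0.0271 to 0.153 FPKM (gap 2.57), and its relative Tfap2b was at 2.47 and 3.05 FPKM and listed at 0 in the other 4 groups. Meox2, a homeobox gene of mesoderm, was at 2.60 and 4.38 FPKM in the pair and likewise listed at 0 elsewhere. Tbx20 (4.89 and 5.81 FPKM against at most 0.303 FPKM) and Dlx2 (6.56 and 8.18 FPKM against 0.438 to 0.939 FPKM) were called too. On the lower side was the homeobox gene En1, listed at 0 in the pair against 1.36 to 4.78 FPKM. Gata6, at 0 and 0.00785 FPKM against 1.24 to 8.36 FPKM, was lower as well.

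The largest gap of a named higher gene was that of Crabp2 (chromosome 3, 87948666 to 87953376), whose product carries retinoic acid to its nuclear receptor. It was at 20.5 and 39.4 FPKM in the pair and at 0.532, 0.630, 0.336 and 0.383 FPKM in the others (gap 3.72). Ucp2, an uncoupling protein of mitochondria, was at 57.2 and 18.4 FPKM against 1.13, 2.13, 0.0223 and 0.0609 FPKM (gap 2.63), and was the named higher gene with the largest difference within the pair, 1.58 on the log2 scale. Kitl, the ligand of the receptor KIT, was at 19.7 and 17.7 FPKM against 2.19 to 2.59 FPKM (gap 2.38). Its values were thus alike within the pair and alike among the others. Inhbb, a subunit of activin B, was at 7.73 and 13.3 FPKM against at most 0.819 FPKM (gap 2.26).

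Genes of cell adhesion and the cytoskeleton that are better known from epithelia or blood cells were also in this set. The desmosome gene Pkp3 was at 9.30 and 11.9 FPKM against 0.197 to 0.796 FPKM (gap 2.52). The formin gene Fmnl1 was at 16.6 and 19.4 FPKM against 0.147 to 1.57 FPKM (gap 2.77). The membrane protease Adam8 was at 14.7 and 13.1 FPKM against 0.614 to 1.19 FPKM (gap 2.68). The remaining named higher genes (Tenm4, Syt8, Gchfr, Nup210, Atp6v0e2 and Adcy7) had gaps between 2.197 and 2.65.

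Defining markers of leukocytes and endothelium were low or listed at 0. Of 10 leukocyte markers 1 could be compared, Cd68, at 1.77 and 1.82 FPKM in the pair and 1.13 to 1.36 FPKM in the others. Cd3e, Tyrobp and Adgre1 were listed at 0 in all 6 groups and Ptprc, which encodes CD45, was at no more than 0.0758 FPKM. The summed level of the leukocyte list was 2.02 and 2.46 FPKM in the pair and 1.31 to 1.59 FPKM in the others. None of 8 endothelial markers reached 1 FPKM, and of 9 epithelial markers only Krt19 did, at 3.43 and 2.81 FPKM in the pair and at up to 15.8 FPKM outside it. Markers of some other lineages were present. The summed level of the neural and glial list was 67.9 and 46.6 FPKM in the pair and 42.0 to 64.2 FPKM in the others, most of it from Nes, which encodes the intermediate filament nestin. The myogenic list summed to 0.0268 and 0.0363 FPKM in the pair and to 37.1 and 29.1 FPKM in Ago2+/+ tunicamycin and Ago2-/- DMSO. The skeletal list summed to 10.1 and 14.6 FPKM in the pair and to no more than 27.8 FPKM in the others, and the adipocyte list to 0.831 and 1.76 FPKM against 3.14 to 4.97 FPKM. Of 2 neural, 2 myogenic, 3 adipocyte and 2 skeletal markers compared, and of 9 caveolar and 4 Argonaute and Dicer genes, 0 were called in either direction. Over all genes 1.46% were higher and 1.90% lower, so nothing is read from a count of 0 in lists this short.

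The lower gene with the largest gap was a chemokine, and several of those that followed encode proteins of the extracellular matrix. Cxcl12 (chromosome 6, 117168535 to 117181367), the chemokine by which stromal cells retain blood stem cells, had a gap of 7.58. It was at 0.0157 and 0.0127 FPKM in the pair and at 237, 245, 244 and 194 FPKM in the other groups. Lox, which cross-links collagen and elastin, was at 0.00895 and 0.00551 FPKM against 101, 114, 44.2 and 42.2 FPKM (gap 5.42). The basement membrane gene Nid1 was at 0.0151 and 0.00266 FPKM against 48.7, 53.4, 64.7 and 51.1 FPKM (gap 5.61). For these genes the pair was close to the lower end of the scale, while the other 4 groups were within 3-fold of each other. Timp3, an inhibitor of metalloproteinases, was at 0.0261 and 0.0186 FPKM against 24.5 to 31.1 FPKM (gap 4.64), and Mgp, which prevents calcification, at 0.0194 and 0.288 FPKM against 27.0 to 83.6 FPKM (gap 4.44).

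Of 20 matrix proteases and their inhibitors, 3 were lower, among them Timp3 and Serpinf1, and 0 higher (15.0% lower, against 1.90% of all genes). Serpinf1, a secreted factor that restrains blood vessel growth, was at 4.42 and 24.8 FPKM in the pair against 242, 289, 73.7 and 80.9 FPKM (gap 1.53). Of 18 genes of fibroblast identity, 3 (16.7%, against 1.90% of all genes) were lower and 0 higher. These were Fbln1 (0.152 and 0.426 FPKM against 8.01 to 11.3 FPKM), the growth factor receptor Pdgfrb (0.540 and 0.799 FPKM against 7.84 to 17.9 FPKM) and the fibronectin gene Fn1 (46.4 and 95.2 FPKM against 290 to 600 FPKM). Other fibroblast genes remained abundant in the pair. Vim was at 1439 and 1290 FPKM, between 952 and 2634 FPKM in the others, and Col1a1 was at 112 and 87.1 FPKM, above the 6.77 and 5.97 FPKM of Ago2+/+ tunicamycin and Ago2-/- DMSO and below the 521 and 651 FPKM of the remaining groups. Thy1, often used to define fibroblasts, was listed at 0 in all 6 groups.

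Of 24 growth factor and receptor genes compared, Kitl was higher (4.17%, against 1.46% of all genes) and Fgf7, Igfbp7 and Gas6 were lower (12.5%, against 1.90%). Fgf7, a fibroblast factor that acts on epithelia, was at 0.258 and 0.397 FPKM against 35.6, 31.6, 77.5 and 90.99 FPKM (gap 4.55). Gas6, the ligand of the receptors AXL and MERTK, was at 0.00336 and 0 FPKM against 1.14 to 6.39 FPKM, while Axl itself overlapped, at 180 and 150 FPKM in the pair and 111 to 226 FPKM in the others.

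The small heat shock protein genes Hspb1 and Hspb8 were lower. Hspb1 was at 0.135 and 0.0687 FPKM against 65.2, 56.1, 108 and 108 FPKM (gap 5.65), and Hspb8 at 0 and 0.0298 FPKM against 36.8 to 43.4 FPKM (gap 5.20). The lymphotoxin receptor gene Ltbr was at 0.00376 and 0.0135 FPKM against 41.2 to 71.0 FPKM (gap 5.38). Cyp1b1, a cytochrome P450 of steroid and retinoid metabolism, was at 0.02 and 0.0265 FPKM against 46.3 to 132 FPKM (gap 5.53). Ldhb, a subunit of lactate dehydrogenase, and the carbonyl reductase Cbr3 were listed at 0 in both groups of the pair and were at 13.8 to 22.2 FPKM and 6.93 to 7.96 FPKM in the others. The imprinted neighbours Peg10 and Sgce (chromosome 6, 4674350 to 4760517), expressed from the paternal allele, were at 1.22 and 0.390 FPKM and at 4.48 and 1.44 FPKM in the pair, against 17.0 to 27.8 FPKM and 12.2 to 20.0 FPKM. They were the only called genes among 12 imprinted genes compared (16.7%, against 1.90% of all genes), of which 7 (58.3%, against 19.3%) did not overlap in the lower direction. The pro-apoptotic gene Pmaip1 (0.00330 and 0 FPKM against 3.27 to 7.14 FPKM) was the only called gene among 17 of the p53 pathway (5.88%, against 1.90% of all genes). In that list 6 genes (35.3%, against 18.0%) did not overlap in the higher direction and 3 (17.6%, against 19.3%) in the lower. The target Cdkn1a was at 66.4 and 57.4 FPKM in the pair against 10.2 to 30.3 FPKM (gap 0.90 in the higher direction).

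Many called genes were below 1 FPKM on their low side, in both directions. Of the 225 lower genes, 133 were below 1 FPKM in both groups of the pair and 75 were below 0.1 FPKM. Of the 173 higher genes, 80 were below 1 FPKM in all 4 other groups and 23 were below 0.1 FPKM. These 80 passed the filter only through the pair. A gene of low level can be called only if its low side is near 0, so the counts partly follow from the rule. No share over all genes was computed for them. The median gaps were 1.54 and 1.55, and 52 higher and 70 lower genes had a gap of at least 2. At the threshold on the higher side, Adgrl3, Gm16754 and Csgalnact1 were just inside, with gaps of 1.00 to 1.01, and AA465934, Pak1 and AC154671.1 just outside, with gaps of 0.99 to 1.00. On the lower side Srrm4, Adamtsl4 and Bmper were just inside, at 1.01 each, and Cited2 and Hsp25-ps1 just outside, at 0.99 each. Members near the threshold are not separable from their neighbours.

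Not all members were genes with an established name. On the higher side 68 of 173 carried names of predicted genes, cDNA clones, pseudogenes or ribosomal protein genes, and on the lower side 33 of 225. By annotated type, pseudogenes made up 29.5% of the higher genes (51 of 173), 9.78% of the lower genes (22 of 225) and 9.09% of all genes compared. The largest gap on the higher side was that of Gm10260, at 1080 and 1255 FPKM in the pair and at 8.48, 6.30, 7.37 and 6.09 FPKM in the others (gap 6.83). Conversely Rpl29, a protein of the large ribosomal subunit, was at 4.01 and 4.54 FPKM in the pair against 485, 431, 393 and 394 FPKM (gap 6.15). Ribosomal protein genes and their processed copies are nearly identical in sequence, so fragments of these loci could be assigned to one copy or another, and their values are uncertain.

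Between both groups of the pair, 165 of the 173 higher genes (95.4%) and 215 of the 225 lower genes (95.6%) differed by less than 1 on the log2(FPKM + 1) scale, where 98.0% of all genes did. The rule favours members with like values in the pair, and the 133 lower genes below 1 FPKM in both groups cannot differ by 1 on this scale, so nothing is read from these shares. A few members differed more. Igfbp7 was at 13.9 FPKM in Ago2+/+ DMSO and 1.89 FPKM in Ago2-/- thapsigargin, whereas Serpinf1, given above, and Adm2, a peptide hormone gene at 0.219 and 5.72 FPKM, were higher in the latter. Klf2, a transcription factor of quiescence, was at 10.2 and 4.53 FPKM.

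Tunicamycin and thapsigargin are used to induce the unfolded protein response, and its genes were not uniformly higher in the group of the pair labelled thapsigargin. Of 23 genes of this response compared, 15 (65.2%) were higher in the group labelled DMSO than in that labelled thapsigargin, where 52.8% of all genes were, with a median difference of 0.18 against 0.013 over all genes, as the plot of differences within the pair shows. The chaperone Hspa5, or BiP, was at 4808 and 3677 FPKM in the pair and at 5367, 5155, 6746 and 7682 FPKM in the others. The co-chaperone Dnajc3 was at 45.6 and 21.5 FPKM in the pair and at 67.2 to 118 FPKM in the others, and Creld2 at 211 and 102 FPKM in the pair and at 321 to 467 FPKM in the others. In these genes the group labelled thapsigargin was the lowest of all 6. Dnajb9 was the only gene of the list to be called, at 9.86 and 9.05 FPKM in the pair against 28.2 to 35.7 FPKM (gap 1.43 in the lower direction), and 10 of 23 did not overlap in that direction (43.5%, against 19.3% of all genes).

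**Figure D5:**
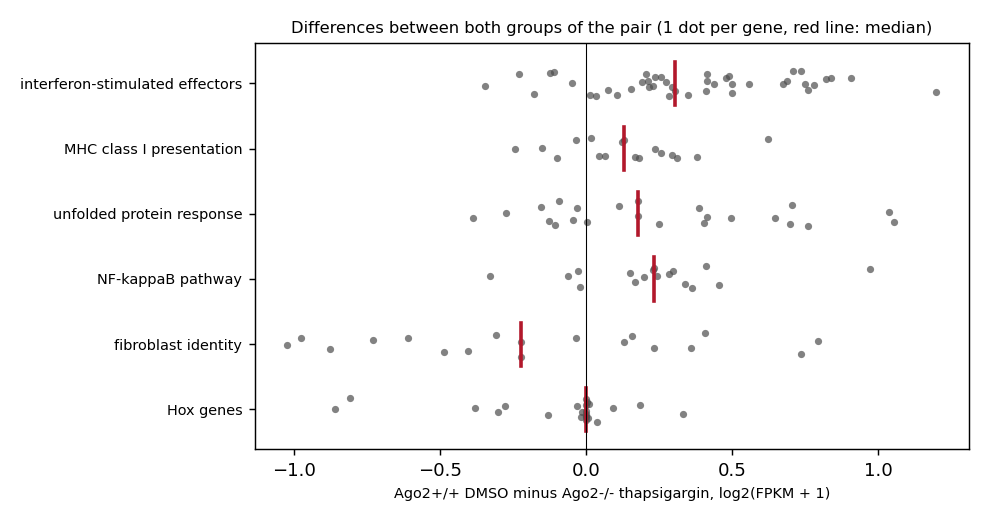
Differences in log2(FPKM + 1) between both groups of the pair (horizontal axis, Ago2+/+ DMSO minus Ago2-/- thapsigargin) for the compared genes of 6 lists, 1 dot per gene, with small random vertical offsets and the median as a red line. To the right of 0 lie 37 of 43 interferon-stimulated genes (86.0%) and 15 of 23 unfolded protein response genes (65.2%), where 52.8% of all genes do. So do 13 of 17 genes (76.5%) in each of the MHC class I and NF-kappaB lists, but 7 of 18 fibroblast identity genes (38.9%). Hox genes have a median of 0.

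The same rule applied to the other 2 pairs gave sets of up to 382 genes in a direction. For Ago2+/+ thapsigargin with Ago2-/- tunicamycin, 382 genes (3.23%) were higher and 159 (1.35%) lower than in the other 4 groups, and their rank correlation was 0.987. For Ago2+/+ tunicamycin with Ago2-/- DMSO, 354 (2.99%) were higher and 230 (1.95%) lower, and the correlation was 0.986. The contractile genes were mostly set by another pair. Acta2, smooth muscle actin, was at 0.644 and 3.77 FPKM in the pair, 1.75 and 1.92 FPKM in Ago2+/+ tunicamycin and Ago2-/- DMSO, and 1644 and 1252 FPKM in Ago2+/+ thapsigargin and Ago2-/- tunicamycin. Of 15 contractile genes, Des was called higher (2.95 and 2.58 FPKM against 0.250 to 0.499 FPKM) and Cald1 lower (109 and 116 FPKM against 304 to 512 FPKM), each 6.67% of the list against 1.46% and 1.90% of all genes.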

How the data were processed

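RNA was sequenced from 18 libraries of mouse embryonic fibroblasts in 6 groups of 3. According to the submitters' processing notes and the study's methods, the authors used FastQC 0.11.7, HISAT2 2.1.0, StringTie 1.3.4d and Cuffdiff 2.2.1 with GRCm38 and Ensembl annotation. The deposited table gives FPKM, which the authors computed with Cuffdiff as 1 pooled value per group. Its columns of log2 fold changes, test statistics and p and q values hold the authors' own comparisons and were not used. The table holds no counts, and at most 41.6% of low values fell on multiples of a common step (tolerance 0.1 of the step), so whole reads were not recovered. Fragments of near-identical copies may have been divided between loci, and the sources used here do not state the strandedness.

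Groups were taken from the library titles. In 4 libraries the source or genotype label conflicts with the title. Of 51499 loci, 50286 carried 1 gene symbol, and the 11821 of these on autosomes with at least 1 FPKM in a group were compared on the log2(FPKM + 1) scale, a pseudocount of 1 that understates differences of low genes. Loci were called at a gap of at least 1. No test was made, since values per library are not in the table and the pair was chosen on its values. Differences were computed with pandas 2.3.3 and numpy 2.4.6 in Python 3.11.15, and the calling was tested on simulated data. Gene types were taken from GENCODE and promoters from RefSeq (GRCm38.p6).

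The members and gene lists were chosen with earlier results of these data known. Named genes were the markers, the 20 genes with the largest gap in each direction without predicted, clone, pseudogene and ribosomal names (23 and 8 were passed over), up to 6 called members of each list and direction, and the 3 genes nearest the threshold on each side. Other genes, such as Gm10260, Rpl29, Ifi27, Tfap2b, Meox2, Hspa5 and Acta2, were named after their values had been seen. A few genes that the rule names are not reported here. Alternatives were other pseudocounts, filters, scalings, thresholds and sets of loci, and leaving out each group.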

Additional observations from a re-analysis of the deposited data

How the results depend on the processing

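Over 516 recomputed gaps of 43 named genes, Atp6v0e2 alone lost its call, with a pseudocount of 5, while Ifih1 was called under 3 alternatives. Pseudocounts, filters and leaving out a group cannot reverse a called gap by their construction, so the scalings alone could have done so. The uncalled gap of Cavin2 went from -0.27 to 0.12 without Ago2+/+ thapsigargin. The counts of members depended mainly on the pseudocount and the threshold. With a pseudocount of 0.1 the counts were 282 higher and 392 lower, with 11 interferon-stimulated genes higher, and with 5 they were 65, 77 and 3. With a gap above 0 they were 2133 and 2284, with 26 interferon-stimulated genes higher and 15 Hox genes lower, and with a gap of at least 2 they were 52, 70 and 2. Leaving out each group in turn gave 180 to 273 higher genes, the highest without Ago2+/+ DMSO, and 237 to 294 lower genes, 6 to 9 interferon-stimulated genes higher and 9 to 10 Hox genes lower. Other filters, scalings, loci with several symbols and X-linked loci kept each count within 1.5-fold. The counts of interferon-stimulated and Hox genes under these alternatives were added after the data had been seen. No paired analysis was possible because the table pools the replicates of each group. Without values per library, precision is limited by the pooled estimate and cannot be stated.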
